A study of Caenorhabditis elegans with 12 samples.

Results

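The genes examined are 8 genes of the intracellular defense program of the nematode Caenorhabditis elegans that is controlled by pals-22 and pals-25. They were taken by name as the rows pals-22, pals-25, eol-1, cul-6, skr-3, skr-4, skr-5 and drh-1 of a table of 46926 genes. Young adult hermaphrodites of the wild-type strain N2 spent 48 h on agar that held bromhexine at 100 µM, genipin at 200 µM, or DMSO alone, with 4 libraries for each of the 3 groups. Bromhexine thins airway mucus, genipin is a crosslinker from gardenia fruit, both were given dissolved in DMSO, and the plates of all groups held FUDR, an inhibitor of DNA synthesis that stops progeny from developing, and bacteria of the strain OP50-1. RNA came from whole worms, and the labels place all libraries in 1 batch. The labels do not say that the libraries of a group came from separate cultures, so a p-value here reflects only how far these samples scatter, and that scatter may be technical.

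The intracellular pathogen response is a set of genes that worms switch on, mainly in the intestine, during infection by microsporidia or the Orsay virus and during some forms of proteotoxic stress. PALS-22 is known to hold this program off and PALS-25, encoded by the next gene in the same operon, is known to turn it on when PALS-22 is absent. Among the genes they control are eol-1, a homolog of the mammalian decapping exonuclease DXO, and the parts of a ubiquitin ligase, the cullin CUL-6 and the Skp1-related adaptors SKR-3, SKR-4 and SKR-5. DRH-1, a relative of the mammalian RNA sensor RIG-I, acts in antiviral RNA interference and is needed for the response to viral RNA.

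Libraries held between 20.3 and 28.1 M counts. In all, 13695 genes passed the filter on low counts and were tested with edgeR, and all 8 genes were among them. Levels are CPM, each gene's share of the TMM-scaled library total. Adjusted p-values follow Benjamini and Hochberg across the 13695 genes, with 0.05 as the limit for a call. Values are listed in the order of replicates 1 to 4. Each of the 26 markers of intestine, germline, epidermis, body wall muscle and neurons had counts in every library, apart from 1 epidermal marker at 0 in at least 1 bromhexine library.

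With bromhexine, 4 of the 8 genes fell, namely pals-22, pals-25, eol-1 and cul-6, and drh-1 rose, while skr-3, skr-4 and skr-5 did not pass the test in edgeR. The largest fall was that of eol-1, to 2.298 ± 0.411 CPM with bromhexine, against 6.88 ± 1.35 CPM in DMSO (SD, n = 4 each). Called genes were common in this comparison: 40.8% of all tested genes passed, 21.8% as lower and 19.0% as higher. The median log2 fold change was -0.38 over the 8 genes and 0.00 over all tested genes. With genipin no gene of the 8 passed, where 0.0365% of all tested genes did (0.0292% higher, 0.0073% lower).

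In whole worms, fewer cells of a type and less RNA per cell cannot be told apart. Germline markers were higher with bromhexine for 6 of 6 genes, with a summed level of 1928 to 2440 CPM with bromhexine, against 1602 to 1879 CPM in DMSO. The summed level of the 6 intestinal markers was 444 to 557 CPM with bromhexine and 354 to 423 CPM in DMSO, with 2 of 6 called higher and 0 lower. Of the 5 epidermal markers 3 of the 4 tested were lower, with sums of 65.5 to 114 CPM with bromhexine and 105 to 159 CPM in DMSO. Most of these sums was sqt-3, at a mean of 74.6 CPM with bromhexine and 109 CPM in DMSO. The marker rol-6 averaged 0.093 CPM with bromhexine, under the filter, and 2.77 CPM in DMSO, so its call is a description. The tested marker elt-3 was not called (adjusted p = 0.258, edgeR). Muscle markers summed to 826 to 1057 CPM with bromhexine and 387 to 809 CPM in DMSO (3 of 4 higher), and neuronal markers to 233 to 248 CPM with bromhexine and 247 to 255 CPM in DMSO (1 of 5 higher, 2 lower). The part of these tissues in the results was not tested.

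**Figure D1:**
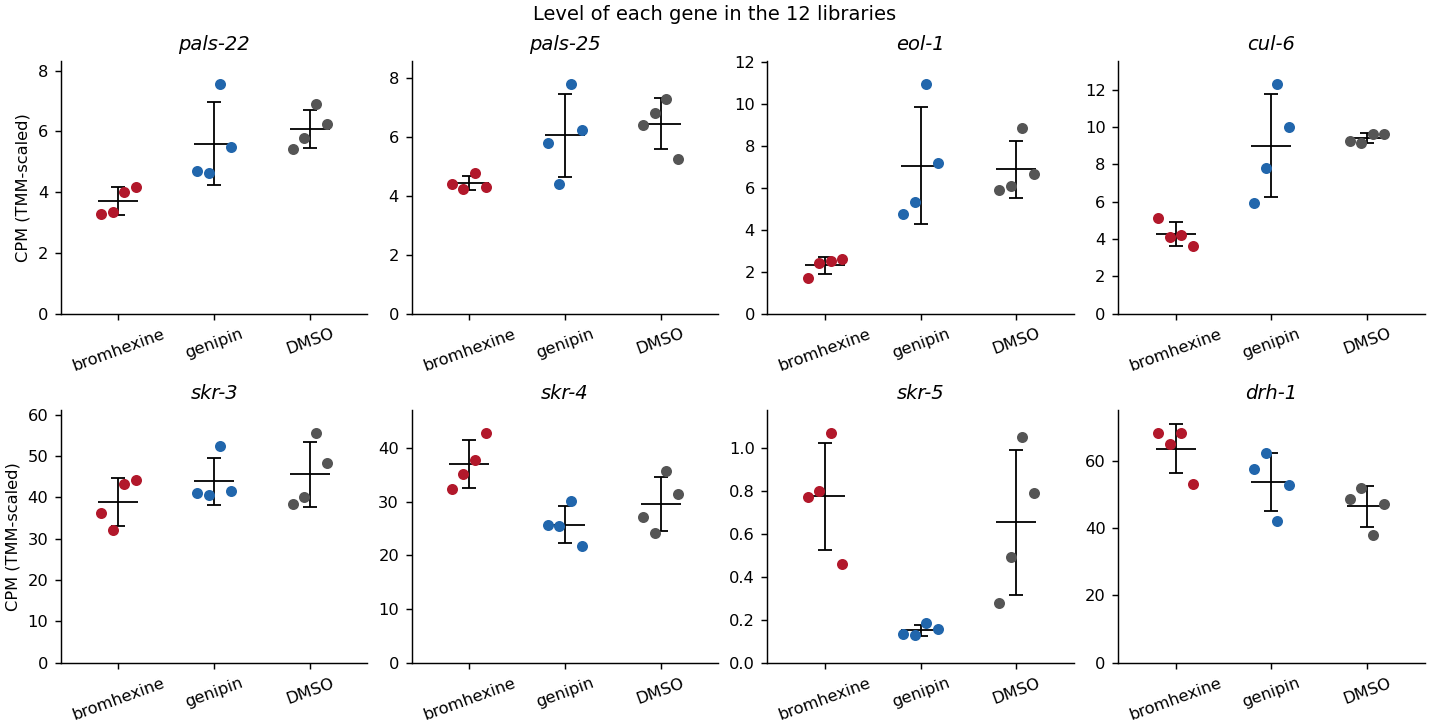
Level of each of the 8 genes in CPM (vertical axes, starting at 0) in the 12 libraries, with replicates 1 to 4 from left to right within a group. Points are libraries, and horizontal lines and bars are the mean and SD of 4 libraries. For pals-22, pals-25, eol-1 and cul-6 every bromhexine library lies below every DMSO library, and for drh-1 every one lies above.

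The regulator pair stands side by side on chromosome III of WBcel235, on the forward strand. The gene pals-22 (WBGene00016216, start 132418, end 134401) is followed after 92 bases by pals-25 (WBGene00020540, start 134494, end 137975). The repressor gene pals-22 stood at 3.28, 3.34, 4.01 and 4.17 CPM with bromhexine. Its levels were 4.68, 4.64, 7.56 and 5.48 CPM with genipin and 5.41, 5.79, 6.89 and 6.24 CPM in DMSO. The 4 bromhexine libraries lay below all libraries of the other groups, and genipin replicate 3 was the highest of all 12. Its log2 fold change was -0.71 ± 0.17 (SE) for bromhexine against DMSO (adjusted p = 0.00471, edgeR), 1.64-fold lower, with a 95% interval of -1.07 to -0.35.

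The activator gene pals-25 stood at 4.41, 4.23, 4.77 and 4.28 CPM with bromhexine. It had 5.79, 4.39, 7.79 and 6.22 CPM with genipin and 6.38, 6.82, 7.30 and 5.26 CPM in DMSO. Bromhexine libraries were again below all DMSO libraries, with DMSO replicate 4 the nearest, while genipin replicate 2 lay within the bromhexine range. The log2 fold change of pals-25 was -0.54 ± 0.17 for bromhexine against DMSO (adjusted p = 0.0182, edgeR), and leaving out DMSO replicate 3 ended that call (adjusted p = 0.0585, edgeR). The repressor and the activator thus moved in the same direction.

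Within a library, the ratio of pals-22 to pals-25 counts was 0.744, 0.789, 0.841 and 0.973 with bromhexine. In genipin libraries it was 0.808, 1.06, 0.970 and 0.881, and in DMSO libraries 0.847, 0.849, 0.944 and 1.19. The 3 ranges overlapped. The ratio of bromhexine to DMSO libraries differed by -0.19 on the log2 scale (2-sided exact permutation test over the libraries, p = 0.257, adjusted p = 0.309 over 12 ratio comparisons), so no difference in the balance of the pair was detectable at 4 libraries a group.

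Other genes of the same stretch of the chromosome did not pass the test. Upstream of pals-22, in the same orientation, lie pals-24 (start 120435, end 124690), pals-23 (start 124778, end 127971) and C29F9.2 (start 130947, end 131751). The family member pals-23 averaged 20.3 ± 3.09 CPM with bromhexine and 18.3 ± 1.85 CPM in DMSO (SD, n = 4 each), a log2 fold change of 0.16 with a 95% interval of -0.11 to 0.42. For pals-24 the log2 fold change was 0.04 (-0.25 to 0.33), with 23.5 ± 5.03 CPM with bromhexine and 22.9 ± 2.60 CPM in DMSO. The low-level gene C29F9.2 was at 0.03 (-0.69 to 0.74), a wide interval on low counts. The difference between these fold changes and those of pals-22 and pals-25 was not tested.

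**Figure D2:**
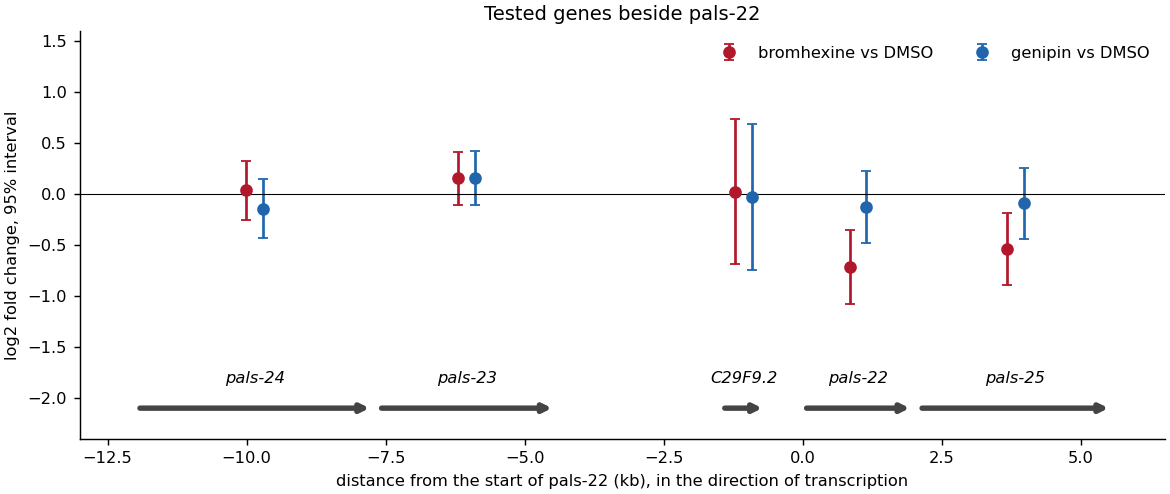
Log2 fold change against DMSO with its 95% interval (vertical axis) of the 5 tested genes around pals-22, placed by distance in kb from the start of pals-22 (horizontal axis). Arrows are gene spans in the direction of transcription. The bromhexine intervals of pals-22 and pals-25 lie below 0, and those of pals-24, pals-23 and C29F9.2 include 0, as do all genipin intervals.

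The target gene eol-1 (WBGene00045401, chromosome V, start 13979462, end 13980907, reverse strand) had the largest fold change of the 8 genes with bromhexine. Its levels were 1.69, 2.405, 2.49 and 2.599 CPM with bromhexine. They were 4.77, 5.33, 10.96 and 7.19 CPM with genipin and 5.896, 6.10, 8.85 and 6.69 CPM in DMSO. All 8 libraries of the other groups lay above the bromhexine libraries, and replicate 3 was the highest in both other groups. Against DMSO, bromhexine changed it by -1.57 ± 0.25 on the log2 scale (adjusted p = 0.000239, edgeR), 2.97-fold lower.

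The cullin gene cul-6 (WBGene00000841, chromosome IV, start 12586485, end 12590451, reverse strand) encodes the scaffold of the ligase. It stood at 5.13, 4.10, 4.23 and 3.63 CPM with bromhexine. With genipin it had 5.93, 7.80, 12.3 and 9.99 CPM, and in DMSO 9.25, 9.15, 9.63 and 9.66 CPM. The DMSO libraries were close to each other, with a coefficient of variation of 2.77%, while the genipin libraries spread from just above the bromhexine range to above the DMSO range. At 204 to 265 counts in a DMSO library, counting noise alone would usually spread them more. Between bromhexine and DMSO it differed by -1.15 ± 0.19 on the log2 scale (adjusted p = 0.000307, edgeR), 2.21-fold lower.

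In edgeR none of the adaptor genes of the ligase was called with bromhexine, while DESeq2 and limma voom called skr-4. All 3 lie on chromosome V: skr-3 (WBGene00004809, start 16121084, end 16122649), skr-4 (WBGene00004810, start 19924224, end 19925033) and skr-5 (WBGene00004811, start 17347902, end 17348723). The gene skr-3 had 36.3, 32.1, 43.2 and 44.3 CPM with bromhexine. It had 41.0, 40.5, 52.4 and 41.4 CPM with genipin and 38.4, 40.0, 55.5 and 48.3 CPM in DMSO. The groups overlapped, and replicate 3 was highest in the genipin and DMSO groups. Its log2 fold change for bromhexine against DMSO was -0.22, with a 95% interval of -0.50 to 0.05 (adjusted p = 0.181, edgeR).

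The gene skr-4 stood at 32.3, 35.2, 37.8 and 42.7 CPM with bromhexine. Its levels were 25.5, 25.4, 30.1 and 21.6 CPM with genipin and 27.1, 24.1, 35.7 and 31.5 CPM in DMSO. Of the bromhexine libraries 2 lay above all DMSO libraries and none lay below them all. The log2 fold change was 0.32 ± 0.13 (95% interval 0.05 to 0.59) and missed the threshold at an adjusted p of 0.0524 in edgeR, while DESeq2 called it (adjusted p = 0.028), as did limma voom (adjusted p = 0.0338). It was also called under RLE scaling (adjusted p = 0.0412, edgeR) and without bromhexine replicate 1, genipin replicate 3, genipin replicate 4 or DMSO replicate 3.

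The gene skr-5 was near the limit of detection, with 15, 18, 24 and 12 counts with bromhexine. It had 3, 3, 4 and 4 counts with genipin and 8, 11, 23 and 21 counts in DMSO. In CPM these are 0.770, 0.802, 1.07 and 0.459 with bromhexine, 0.134, 0.128, 0.187 and 0.155 with genipin, and 0.279, 0.493, 1.05 and 0.789 in DMSO. Every genipin library was below every library of the other groups, and bromhexine and DMSO libraries overlapped. The genipin libraries alone, at 3 or 4 counts each, would not have passed the filter on low counts. The DMSO libraries alone would not have passed either, with 8 counts in replicate 1, so skr-5 was tested through its bromhexine libraries. The log2 fold change for bromhexine against DMSO was 0.25 with a wide 95% interval of -0.59 to 1.09 (adjusted p = 0.63, edgeR). For that reason it is given as a description. Its exons share 59 bases with lsy-27 on the opposite strand, and the strandedness of the libraries was not stated. The overlapping gene lsy-27 averaged 29.5 ± 1.78 CPM with bromhexine, 27.04 ± 1.70 CPM with genipin and 27.7 ± 0.64 CPM in DMSO (SD, n = 4 each), and its log2 fold changes of 0.09 and -0.04 against DMSO were not called.

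The balance between the adaptors was compared within libraries. The ratio of skr-4 to skr-3 counts, which no scaling of libraries can move, was 0.890, 1.097, 0.874 and 0.965 with bromhexine. It was 0.624, 0.628, 0.575 and 0.523 with genipin and 0.706, 0.602, 0.643 and 0.651 in DMSO. Bromhexine libraries did not overlap with either other group. The difference was 0.55 on the log2 scale for bromhexine against DMSO and 0.70 for bromhexine against genipin, each at p = 0.0286 in a 2-sided exact permutation test. That is the smallest p that 4 against 4 libraries can give, and it became an adjusted p of 0.0571 over the 12 ratio comparisons, which misses the threshold. The adjusted value depends in part on skr-5 ratios among the 12, which use genipin libraries at 3 or 4 counts. The ratios were also chosen after values were seen. As a share of the summed level of the 3 adaptors, skr-4 made up 48.3 ± 2.58% with bromhexine, 36.9 ± 2.00% with genipin and 39.1 ± 1.63% in DMSO (SD, n = 4 each).

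**Figure D3:**
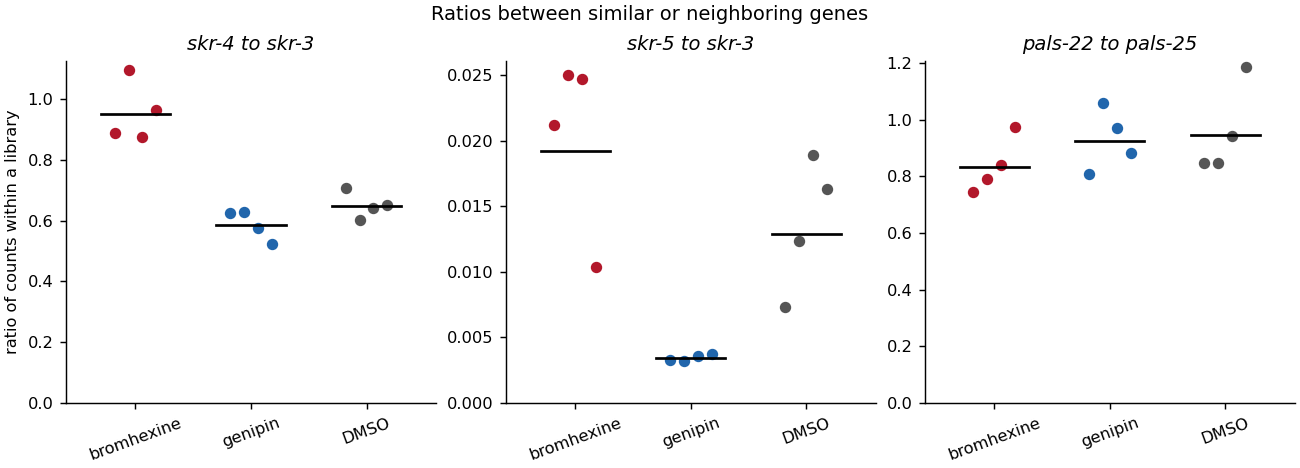
Ratio of counts within each library (vertical axes, starting at 0) for skr-4 to skr-3, skr-5 to skr-3 and pals-22 to pals-25. Points are libraries, replicates 1 to 4 from left to right, and lines are geometric means. The skr-4 to skr-3 ratio is 0.874 to 1.097 with bromhexine, against 0.523 to 0.628 with genipin and 0.602 to 0.706 in DMSO.

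The sensor gene drh-1 (WBGene00001090, chromosome IV, start 6607376, end 6613353, reverse strand) moved the other way from eol-1 and cul-6. It stood at 68.2, 65.1, 68.2 and 52.9 CPM with bromhexine. Its levels were 57.5, 62.2, 42.1 and 52.9 CPM with genipin and 48.6, 51.9, 38.0 and 47.2 CPM in DMSO. All bromhexine libraries exceeded all DMSO libraries, with replicate 4 only just above DMSO replicate 2, and replicate 3 was the lowest of both the genipin and the DMSO groups. Relative to DMSO it was higher by 0.45 ± 0.12 on the log2 scale (adjusted p = 0.00833, edgeR), 1.37-fold higher. As given above, markers called higher with bromhexine were 6 of 6 for germline, 3 of 4 for muscle and 2 of 6 for intestine. Neuronal markers were mixed (1 of 5 higher, 2 lower) and 3 of 4 tested epidermal markers were lower, rol-6 among them as a description. A link between these tissues and drh-1 was not tested.

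Groups that did not overlap were common as well: 35.9% of all tested genes had no overlap between bromhexine and DMSO libraries, against 5 of these 8.

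Genipin gave no called change among the 8 genes. In edgeR 0 of 8 passed after adjustment and 1 of 8, skr-5, had an unadjusted p under 0.05, while DESeq2 and limma voom called 0 each. Of all 13695 tested genes, 390 higher and 281 lower had an unadjusted p under 0.05 in edgeR, so nothing is read from that 1 of 8. Over all genes edgeR called 4 higher and 1 lower with genipin. Among the 8 genes, skr-5, which was not called, stood at 3 to 4 counts with genipin, against 8 to 23 counts in DMSO. It is given as a description because of the filter. Genes without overlap between genipin and DMSO made up 3.11% of all tested genes (1.61% below, 1.5% above).

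For the other genes the intervals bound what genipin could have changed. The 95% interval of the log2 fold change was -0.48 to 0.23 for pals-22, -0.44 to 0.26 for pals-25, -0.45 to 0.53 for eol-1 and -0.45 to 0.32 for cul-6. Each of these 4 excludes a fall as large as the fitted value of that gene with bromhexine, though both comparisons share the DMSO libraries. For skr-3 the interval was -0.33 to 0.22, for skr-4 -0.48 to 0.07 and for drh-1 -0.05 to 0.47. Genipin libraries were more spread than the others for some genes, with a coefficient of variation of 39.6% for eol-1 and 30.6% for cul-6. The values were 19.7% and 2.77% in DMSO and 17.9% and 14.7% with bromhexine. The 2.77% lies under counting noise, so the size of that contrast is not read.

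**Figure D4:**
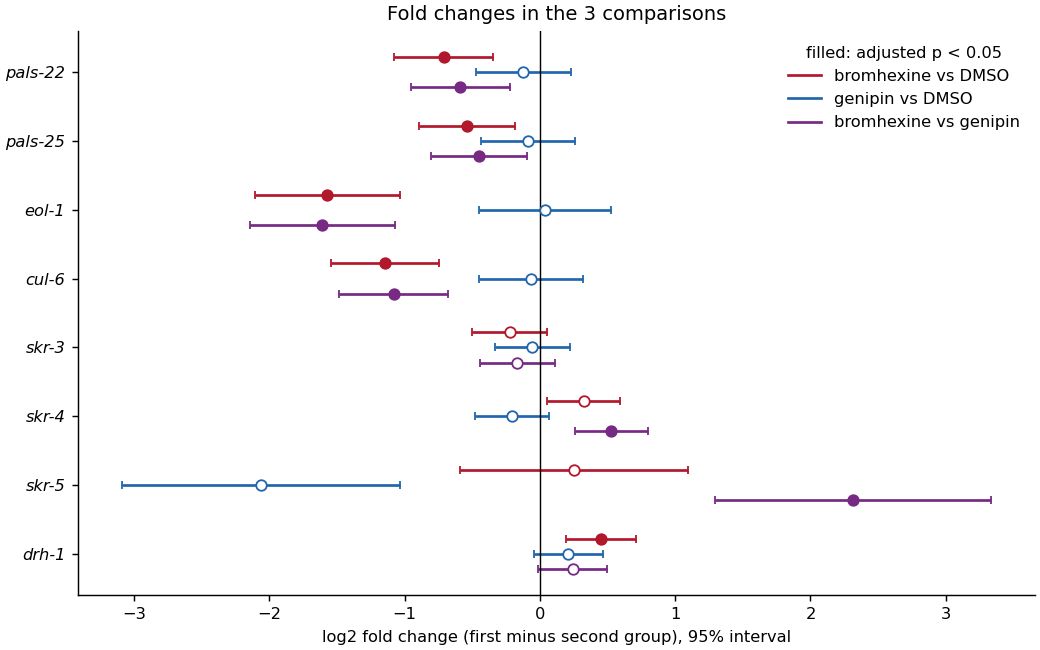
Log2 fold change (horizontal axis, first minus second group) of the 8 genes in the 3 comparisons, with 95% intervals. Filled points passed an adjusted p of 0.05 in edgeR and open points did not. The fall of eol-1, cul-6, pals-22 and pals-25 with bromhexine appears against both DMSO and genipin, while skr-4 is called in edgeR between the compounds only. The skr-5 values rest on 3 to 4 counts in each genipin library.

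Bromhexine and genipin were compared directly, at doses that differ by design. Of the 8 genes 4 were called lower with bromhexine than with genipin and 2, skr-4 and skr-5, were called higher, where 19.5% and 15% of all tested genes were called lower and higher (34.5% in all). The gene eol-1 differed by -1.61 ± 0.25 on the log2 scale (adjusted p = 0.000249) and cul-6 by -1.08 ± 0.19 (adjusted p = 0.000583, both edgeR). The regulators were closer to the threshold. The difference was -0.59 ± 0.17 for pals-22 (adjusted p = 0.0167, edgeR), a call that ended without genipin replicate 3 (adjusted p = 0.0631) or without bromhexine replicate 1 or 2 (adjusted p = 0.0503 and 0.0511). It was -0.45 ± 0.17 for pals-25 (adjusted p = 0.0486, edgeR), and only the omissions of genipin replicate 2 and DMSO replicate 4 kept that call among 12, with the highest adjusted p, 0.174, without genipin replicate 3.

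In the other direction skr-4 was 1.44-fold higher with bromhexine than with genipin (0.53 ± 0.13 on the log2 scale, adjusted p = 0.0058, edgeR). The gene skr-5 had 12 to 24 counts with bromhexine and 3 to 4 counts with genipin, and nothing is read from its call, since the genipin libraries lay under the filter and the 1 CPM filter removed it from the test. The sensor gene drh-1 differed by 0.24 with an interval of -0.01 to 0.50 (adjusted p = 0.125, and 0.038 without bromhexine replicate 4), and skr-3 by -0.17 with an interval of -0.44 to 0.11 (adjusted p = 0.326, both edgeR). With the counts of skr-3, skr-4 and skr-5 summed into 1 row, the difference between the compounds was 0.14 ± 0.12 (adjusted p = 0.374, edgeR), so the summed adaptors did not pass.

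Levels of different genes were compared per kb of merged exons. In bromhexine libraries the order of CPM per kb was skr-4 (54.3 ± 6.52), skr-3 (49.6 ± 7.40), drh-1 (19.3 ± 2.20), pals-22 (4.14 ± 0.51), pals-25 (4.12 ± 0.23), eol-1 (1.90 ± 0.34), cul-6 (1.87 ± 0.28) and skr-5 (1.25 ± 0.40, SD, n = 4 throughout). The ranges of skr-4 and skr-3 overlapped there, as did those of pals-22 and pals-25, of eol-1 and cul-6, and of cul-6 and skr-5. Genipin libraries had skr-3 (55.8 ± 7.32), skr-4 (37.7 ± 5.10), drh-1 (16.3 ± 2.61), pals-22 (6.26 ± 1.53), eol-1 (5.85 ± 2.32), pals-25 (5.64 ± 1.31), cul-6 (3.95 ± 1.21) and skr-5 (0.244 ± 0.043) CPM per kb. The ranges of pals-22, eol-1, pals-25 and cul-6 overlapped from neighbor to neighbor.

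In DMSO the order of CPM per kb was skr-3 (58.0 ± 10.1), skr-4 (43.4 ± 7.44), drh-1 (14.1 ± 1.81), pals-22 (6.81 ± 0.71), pals-25 (6.003 ± 0.81), eol-1 (5.70 ± 1.121), cul-6 (4.13 ± 0.11) and skr-5 (1.05 ± 0.54). Neighbors with overlapping ranges were skr-3 and skr-4, pals-22 and pals-25, and pals-25 and eol-1. The adaptor skr-3 thus stood at the 82.3rd percentile of tested genes in DMSO per kb, pals-22 at the 43.7th and skr-5 at the 17.5th. Among cul-6 and the 3 adaptors, the mean of cul-6 was above only that of skr-5 in all 3 groups.

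Over the 12 libraries, eol-1 and pals-22 ran closely together (Pearson r = 0.96 of log2 CPM), while drh-1 ran against pals-22 (r = -0.90). Both values include the differences between groups and are given as descriptions. Among all tested genes the pattern most like pals-22 was that of Y110A2AL.4 (r = 0.97) and mag-1 (r = 0.97), and the pattern most like pals-25 was that of snr-3 (r = 0.95) and H20J04.6 (r = 0.95). Most like eol-1 were cst-1 (r = 0.98) and F15D4.5 (r = 0.98), and most like cul-6 were F14F9.4 (r = 0.98) and dpf-4 (r = 0.97). For the adaptors they were Y51B9A.8 and Y49F6B.2 (r = 0.91 both) with skr-3, C01H6.4 (r = 0.97) and ads-1 (r = 0.96) with skr-4, and ubc-26 (r = 0.92) and cox-7C (r = 0.90) with skr-5. The genes most like drh-1 were ptp-2 (r = 0.99) and B0001.2 (r = 0.98).

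The remaining pals family, named for a shared protein signature, was mostly at low counts. Of the 36 other annotated pals genes 15 passed the filter and 21 did not, and 1 of these 21 had no count in any library. With bromhexine 2 of the 15 fell and 1 rose, where 21.8% of all tested genes fell and 19.0% rose. These counts include pals-26 and pals-14, whose calls are descriptions because of the filter, which leaves the call of pals-27. The median log2 fold change over the 15 was -0.11. The gene pals-27 averaged 1.21 ± 0.39 CPM with bromhexine and 2.33 ± 0.47 CPM in DMSO (-0.93 ± 0.26 on the log2 scale, adjusted p = 0.0109, edgeR). Its neighbor pals-26 fell by 1.06 on the log2 scale (adjusted p = 0.0476, edgeR), to 0.368 CPM with bromhexine against 0.781 CPM in DMSO. Among omissions of a library, that call held without bromhexine replicate 3, genipin replicate 1 or genipin replicate 3. It ended in the other 9 (adjusted p up to 0.154 in edgeR, without DMSO replicate 4), without a filter and in the fit of 8 libraries. The bromhexine libraries alone would not have passed the filter on low counts, so the fall of pals-26 is given as a description. In the other direction pals-14 stood at 0.308, 0.534, 1.47 and 1.22 CPM with bromhexine, against 0.140, 0.314, 0.502 and 0.301 CPM in DMSO. It rose by 1.53 ± 0.53 on the log2 scale (adjusted p = 0.0318, edgeR), but not without bromhexine replicate 3 (adjusted p = 0.118), without bromhexine replicate 4, without DMSO replicate 1, 2 or 4, or in limma voom. The DMSO libraries of pals-14 alone would not have passed the filter either, nor would its bromhexine libraries, with 6 counts in replicate 1. The rise of pals-14 is therefore given as a description too. Between the compounds edgeR, DESeq2 and limma voom called 0 of the 15, and 3 had an unadjusted p under 0.05, all lower. Of all 13695 tested genes 3333 lower and 2946 higher had one in edgeR.

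The untested pals genes had their highest summed level in bromhexine replicate 3. The 21 genes together had 35, 65, 165 and 35 counts in the 4 bromhexine libraries. In genipin libraries they had 29, 43, 30.2 and 52.8 counts, and in DMSO libraries 38, 38, 36 and 35. Replicate 3 was the highest bromhexine library for 13 of the 21. How often other low-count genes were highest in that library was not examined, so nothing particular to pals genes is read from the count. In that library eol-1 (2.49 CPM) and cul-6 (4.23 CPM) stayed within the range of the other bromhexine libraries. With genipin 0 of the 15 tested pals genes were called in edgeR, 0 had an unadjusted p under 0.05, and DESeq2 and limma voom called 0.

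Partners of the CUL-6 ligase were rcs-1, a RING subunit, and the F-box genes fbxa-75 and fbxa-158. The gene fbxa-158 averaged 0.361 ± 0.22 CPM with bromhexine, against 0.997 ± 0.26 CPM in DMSO, which is -1.48 ± 0.49 on the log2 scale (adjusted p = 0.0272, edgeR). That call ended without bromhexine replicate 2 (adjusted p = 0.0759) or 3, or without DMSO replicate 3 or 4. It was lower than with genipin too (-1.60 ± 0.49, adjusted p = 0.022, edgeR), and not without genipin replicate 3 (adjusted p = 0.0734), bromhexine replicate 2 or bromhexine replicate 3. The bromhexine libraries alone would not have passed the filter on low counts, so both calls of fbxa-158 are given as descriptions. The RING gene rcs-1 did not pass (0.28 on the log2 scale, adjusted p = 0.168, edgeR), with 7.68 ± 0.98 CPM with bromhexine and 6.35 ± 1.13 CPM in DMSO, and fbxa-75 had at most 4 counts in a library and was not tested.

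Of 16 other genes known to rise in the intracellular pathogen response 12 were matched and 5 were tested. With bromhexine sdz-6 fell by 1.03 on the log2 scale (adjusted p = 0.0168, edgeR, and 0.0602 without DMSO replicate 4, with the call also lost without DMSO replicate 3 or bromhexine replicate 1), and the others did not pass. The median over the 5 was 0.28. The F-box gene fbxa-182 was higher with bromhexine than with genipin (0.58 ± 0.14, adjusted p = 0.00473, edgeR). The chitinase-like reporter gene chil-27 had 6, 6, 7 and 7 counts with bromhexine, against 9, 3, 2 and 9 counts in DMSO, under the filter.

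None of the 4 regulators of the response passed in any comparison in edgeR, DESeq2 or limma voom. These were zip-1, a bZIP transcription factor that acts in the response, and pnp-1, lin-35 and sta-1, which are known to restrain it. With bromhexine zip-1 was at 0.25 ± 0.11 on the log2 scale (unadjusted p = 0.0415, adjusted p = 0.0867, edgeR), and it was the only one under 0.05 before adjustment. Of all 13695 tested genes 3265 higher and 3533 lower were under 0.05 before adjustment in edgeR.

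Of the genes that work with drh-1 in antiviral RNA interference, 2 of 5 tested rose with bromhexine and none fell, where 19.0% of all tested genes rose, and nothing particular to these 5 is read from the count. The gene rsd-2, needed for the spread of silencing, averaged 176 ± 15.6 CPM with bromhexine and 139 ± 2.102 CPM in DMSO (0.34 ± 0.07 on the log2 scale, adjusted p = 0.00241, edgeR). The Argonaute gene rde-1 averaged 108 ± 11.9 CPM with bromhexine and 86.8 ± 7.70 CPM in DMSO (0.31 ± 0.09, adjusted p = 0.0118, edgeR). Against genipin rsd-2 was higher by 0.23 ± 0.07 (adjusted p = 0.0246, edgeR, and 0.0848 without bromhexine replicate 1, with the call also lost without bromhexine replicate 2 or 3 or genipin replicate 1 or 3). The median of the 5 genes with bromhexine was 0.15, and drh-1 itself was at 0.45.

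Other members of the ligase families were examined as well. None of the 5 other cullins passed with bromhexine in edgeR, DESeq2 or limma voom, nor at an unadjusted p under 0.05, and their log2 fold changes lay between -0.01 and 0.16. Of the other Skp1 homologs 10 of 16 tested fell with bromhexine and 0 rose in edgeR, against 21.8% and 19.0% of all tested genes. The median over the 16 was -0.72. In the upward direction 1 had an unadjusted p under 0.05, DESeq2 called 1 and limma voom called 0. The lowest p-values were those of skr-21 (-1.26 ± 0.17, adjusted p = 7.27e-05), skr-20 (-0.82 ± 0.13, adjusted p = 0.000222), skr-19 (-0.96 ± 0.18, adjusted p = 0.000884) and skr-14 (-0.88 ± 0.18, adjusted p = 0.00152, all edgeR). Against genipin 9 fell and 2 rose, among them skr-21 (-1.18 ± 0.17), skr-20 (-0.75 ± 0.13), skr-19 (-0.92 ± 0.18) and skr-16 (-0.73 ± 0.15). The calls of skr-10, skr-12, skr-13 and skr-17 against genipin each ended without at least 1 library. With genipin 0 of these 16 were called against DMSO in edgeR, 0 had an unadjusted p under 0.05, and DESeq2 and limma voom called 0.

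**Figure D5:**
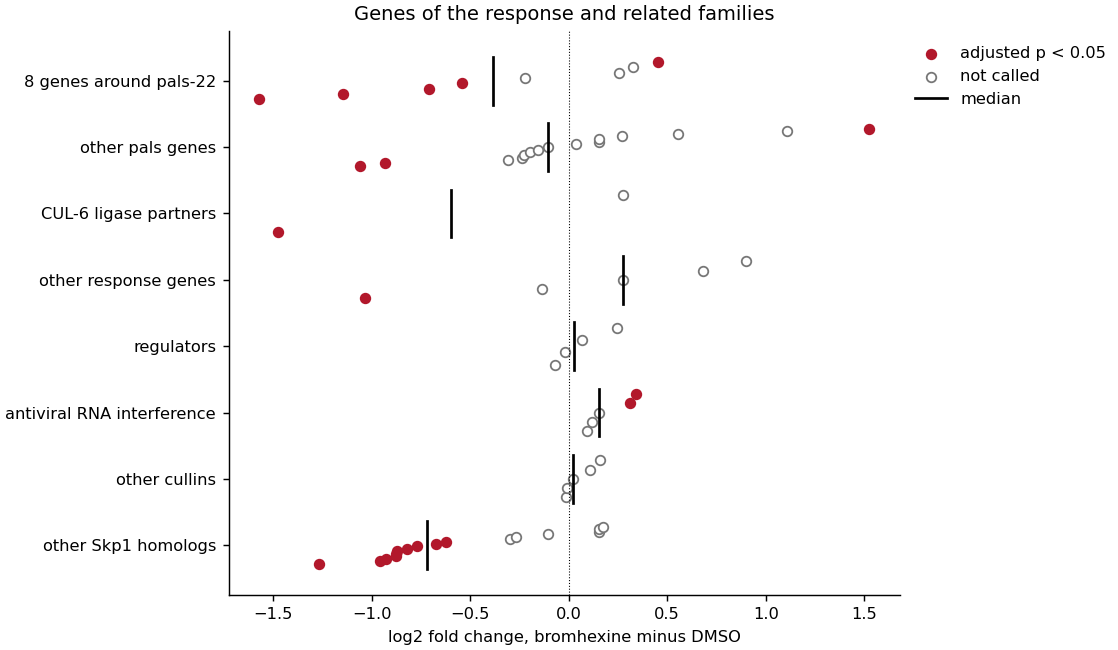
Log2 fold change of bromhexine minus DMSO (horizontal axis) for each tested gene of the 8 genes, the other pals genes and the related lists. Red points passed an adjusted p of 0.05 in edgeR, open points did not, and vertical bars are medians (-0.38 for the 8 genes, -0.72 for the other Skp1 homologs). The cullins cul-1 to cul-5 lie close to 0.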

How the data were processed

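Total RNA from worm pellets gave 12 paired-end libraries, run on a HiSeq4000 per the labels. Tools named in the submitters' processing notes are STAR 2.7.11b, RSEM 1.3.3 and FastQC, with the build WBcel235. What the authors deposited are expected counts, which divide reads shared by several genes, and 2.06% of them carry decimals. Among the 8 genes, decimals occur in 2 values, both of drh-1. Strandedness, trimming and the annotation release: not given in the sources used here.

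Symbols, positions and merged exon lengths came from Ensembl release 115 (WBcel235), in which all 46926 genes were found. Rounded expected counts went into edgeR 4.0.16 under R 4.3.3 (filterByExpr, TMM, 1 quasi-likelihood fit of the 12 libraries with group as the only term, Benjamini-Hochberg over 13695 genes). Each SE is the size of the log2 fold change divided by the square root of F, and intervals use the test's degrees of freedom. The biological coefficient of variation was 12.1%. Log2 CPM used a prior count of 2. The chi-squared statistic between replicates ran from 6.30 to 33.31 per degree of freedom, above counting noise for every pair.

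The members and lists were chosen with earlier results of these data known. All 8 genes are named. Of a list, called genes are named, up to 4 with the smallest p where the list is longer than 6. The ratios, lsy-27, C29F9.2 and uncalled genes named for their role or position were added after values were seen. Of the listed genes, chil-28, B0507.10, W09B7.2, arf-1.1 and drh-2 were not matched and are not analysed here. Alternatives were DESeq2 1.42.0, limma voom (limma 3.58.1), other scalings and filters, the replicate block, 8-library fits, an adjusted p under 0.01, summed adaptors, and omission of each library.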

Additional observations from a re-analysis of the deposited data

Results flagged for a closer look

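In the 4 genipin libraries, skr-3 stood at 52.4 CPM in replicate 3, apart from the other 3 at 40.5 to 41.4 CPM. It was the only one of 42 groups of 4 values that held a library this far from its neighbors. Chance alone would flag about 1 group in 20, so 1 flag among 42 is no more than chance gives. Genipin replicate 3 was also the highest genipin library for pals-22 (7.56 CPM), pals-25 (7.79 CPM), eol-1 (10.96 CPM) and cul-6 (12.3 CPM), and the lowest for drh-1 (42.1 CPM). DMSO replicate 3 was likewise the highest DMSO library for skr-3 (55.5 CPM), pals-22 (6.89 CPM), pals-25 (7.30 CPM) and eol-1 (8.85 CPM). It was also the lowest DMSO library for drh-1 (38.0 CPM), while for cul-6 DMSO replicate 4 was the highest. Without genipin replicate 3, but with DMSO replicate 3 kept, the log2 fold change of eol-1 with genipin against DMSO was -0.25 (adjusted p = 0.692, edgeR).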

How the results depend on the processing

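Of 485 recomputed values of the 8 genes over the 3 comparisons, 444 kept their direction and their side of the threshold. With bromhexine against DMSO, pals-22, eol-1, cul-6 and drh-1 kept their call under all alternatives run. No scaling moved the median log2 fold change of all genes by as much as 0.1.

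Against DMSO, skr-4 passed under RLE scaling (0.34), the replicate block (0.33), limma voom (0.34) and DESeq2 (0.34), so 2 genes were called higher in those fits, and it ranged from 0.24 to 0.43 over omissions of a library (1 to 2 genes called higher). Omissions gave pals-25 -0.63 to -0.48, and skr-5 -0.011 to 0.57. With a replicate block skr-3 passed at -0.22 (adjusted p = 0.044), and with the adaptors summed its 0.019 stood in place of -0.22. The replicate numbers were not taken to pair the libraries: of 12 same-numbered correlations 3 exceeded 0.1, all of them between genipin and DMSO libraries and none with a bromhexine library, and 5 of 12 libraries correlated best with their own number.

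With genipin against DMSO, directions without a call turned for eol-1 (-0.0077 with the replicate block, -0.016 in limma voom, and -0.25 to 0.18 over omissions), and over omissions for pals-25 (-0.23 to 0.037), cul-6 (-0.25 to 0.084) and skr-3 (-0.15 to 0.054). Between the compounds, pals-25 missed the threshold at -0.43 under RLE, -0.46 without a filter, -0.46 with 8 libraries and -0.42 in limma voom, and ranged from -0.58 to -0.31 over omissions. Omissions gave pals-22 -0.67 to -0.41 and drh-1 0.14 to 0.32, and the summed adaptors gave 0.14 in place of skr-3, skr-4 and skr-5. Under the 1 CPM filter skr-5 was not tested, which left 1 gene called higher. Omissions left 2 to 4 called lower.

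Over all genes, an adjusted p of 0.01 left 1295 higher and 1893 lower with bromhexine, 855 and 1602 between the compounds (omissions 1301 to 2578 and 2000 to 3094), and 2 and 0 with genipin. With genipin, calls were 9 and 8 without a filter, 14 and 17 in DESeq2, 1 higher in limma voom, 2 higher with 8 libraries, 2 lower with the replicate block, and 2 to 9 and 0 to 8 over omissions. List genes called higher with bromhexine were 5 under RLE and 5 in DESeq2, against 3. Between the compounds they were 2 with 8 libraries, and omissions gave 2 to 6 higher and 6 to 14 lower. Low counts limit skr-5 and the untested pals genes. DESeq2 gave all 8 genes an adjusted p.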
